A study of Mus musculus with 8 samples.

Results

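Chemokine receptors are described here in regulatory (Treg) and conventional (Tconv) CD4+ T cells of mice in which CD27 is engaged by transgenic CD70. The 9 genes are *Cxcr3*, *Cxcr4*, *Cxcr6*, *Ccr2*, *Ccr4*, *Ccr6*, *Ccr7*, *Ccr8* and *Ccr9*. They were taken by gene name from a table of 52636 rows, in which each name was found, and all 9 were among the 12817 genes high enough to be tested. RNA was sequenced from 200000 sorted cells per library, with 2 libraries in each of 4 groups, 8 in all. The control Tregs and control Tconvs came from CD27+/- mice, which are heterozygous for a null allele of *Cd27*. The CD70Tg Tregs and CD70Tg Tconvs came from CD11c-*Cd70*tg;CD27+/- mice, in which the CD11c promoter, active in dendritic cells, drives expression of CD70, the ligand of CD27. The CD27+/- genotype was therefore common to all groups. Tregs were sorted as Foxp3+ and Tconvs as Foxp3- cells by a Foxp3-eGFP reporter and the methods give the age of the mice as 6 to 8 weeks. The transgenic mice go on to develop a spontaneous disease, which limits them as a model of CD27 engagement alone. Antibodies removed other lineages before the sort, and anti-CD25 was used in purifying Tconvs but not Tregs.

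Chemokine receptors are G protein-coupled receptors with a bundle of membrane-spanning helices, through which T cells sense gradients of chemokines and move towards their source. Naive and central memory T cells use CCR7 to stay in lymphoid organs, whereas effector cells gain receptors for chemokines made in inflamed tissue, of which CXCR3 is the classical receptor of type 1 responses. Engaged receptors couple to inhibitory G proteins and are silenced by receptor kinases, arrestins and RGS proteins. All values below are in the deposited unit, the number of reads per 20 M reads on genes, rounded up. A log2 fold change is the difference of log2(value + 5) between groups, which understates the change of low values. A gene counted as called when its limma p-value, adjusted by Benjamini-Hochberg over all tested genes, was under 0.05 and its log2 fold change was beyond 1 in either direction, and "rose" or "fell" is used only of called genes. In a population of sorted cells, fewer cells expressing a receptor and less RNA per expressing cell cannot be told apart.

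The stretch just before the start of a gene was read for 8 of the 9 receptors, *Ccr6* having 2 alternative starts, from the RefSeq promoter windows of GRCm38.p6. The windows are shown for 3 receptors because these stand at the extremes of the patterns below: *Cxcr4* was the receptor that fell in both subsets, *Cxcr6* had the widest gap between Tconvs and Tregs of CD70Tg mice, and *Ccr6* alone held a match to a motif searched. Each is printed 5′ to 3′ on the strand of the gene and ends at the base before the RefSeq start. In *Cxcr4* (chr1:128592300-128592549, minus strand) and *Cxcr6* (chr9:123806227-123806476, plus strand), capitals mark CpG dinucleotides. In *Ccr6* (the upstream start, chr17:8235793-8236042, plus strand), capitals mark the motif matches.
Cxcr4: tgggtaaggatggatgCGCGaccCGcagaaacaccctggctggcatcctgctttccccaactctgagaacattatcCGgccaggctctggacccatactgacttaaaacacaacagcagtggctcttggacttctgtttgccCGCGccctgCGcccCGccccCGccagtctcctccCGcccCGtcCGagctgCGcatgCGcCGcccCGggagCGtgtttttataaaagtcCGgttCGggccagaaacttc
Cxcr6: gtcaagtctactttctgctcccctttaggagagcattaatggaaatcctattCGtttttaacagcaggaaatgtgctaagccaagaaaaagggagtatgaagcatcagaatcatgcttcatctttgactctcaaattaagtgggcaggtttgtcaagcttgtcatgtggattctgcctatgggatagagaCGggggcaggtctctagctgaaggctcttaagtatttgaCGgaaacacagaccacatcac
Ccr6: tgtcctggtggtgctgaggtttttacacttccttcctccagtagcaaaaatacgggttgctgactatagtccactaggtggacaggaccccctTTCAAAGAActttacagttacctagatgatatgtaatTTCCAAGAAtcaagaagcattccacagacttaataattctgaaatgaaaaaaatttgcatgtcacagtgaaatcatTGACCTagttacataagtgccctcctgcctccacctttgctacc

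The *Cxcr4* window held 19 CpG dinucleotides in its 250 bases, a count reached by 19.7% of the 32851 windows of all genes. The other receptor windows held 1 to 7, against a median of 6 over all windows. A set of 3 short motifs was searched on both strands. The T-box motif GGTGTGA, bound by T-bet and Eomes, was in 0 of the 9 receptor windows and in 3.33% of all windows. The interferon-γ activated site TTCNNNGAA was found in 1 receptor window, that of *Ccr6*, against 7.02% of all windows. The ROR element AGGTCA was also in the *Ccr6* window, on the minus strand, against 14% of all windows. A match is a description of these letters and not of a bound site.

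The sorted populations carried the RNA of their labels. *Foxp3* lay between 19769 and 21367 in the 4 Treg libraries and between 1039 and 1497 in the 4 Tconv libraries. Sequencing depth, as reads assigned to genes and estimated from the worth of 1 read, ran from 6.94 to 33.28 M in Tconvs and from 1.91 to 4.57 M in Tregs, so that depth and cell subset cannot be told apart. The highest of these, 33.28 M, is the least certain, as 1 read is worth less than 1 unit there. The value that 3 reads give, used here as the limit of detection, was 2 to 9 in the Tconv libraries and 14 to 32 in the Treg libraries, counting error only, and every receptor lay above it in every library. Replicate numbers of the samples are missing from the column names, and libraries are numbered here only by their order in the table. The sources used here do not say whether the 2 libraries of a group came from separate mice, so the p-values measure only the spread between these libraries, which may be technical. The second CD70Tg Tconv library stood apart from the first for several receptors, and calls that change without it are given with and without it.

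The markers of CD4 T cells summed to between 71585 and 98172 in all libraries. Those of each other lineage summed to 3012 or less, a limit that lies in the range of *Ccr2* in CD70Tg Tregs. The 5 B cell markers summed to 61 to 176 in Tconvs and 254 to 473 in Tregs, and the 3 plasma cell markers to 74 or less. Of the 4 neutrophil markers, *Mpo* was at or under 3 reads in all groups, yet the list summed to 165 to 180 in CD70Tg Tregs and to 5 in control Tregs. The 4 erythroid and platelet markers summed to 1595 to 2550 in CD70Tg Tregs against 399 to 1056 in control Tregs, with *Pf4* and *Ppbp* at or under 3 reads. The 4 NK cell markers summed to 197 to 293 in CD70Tg Tconvs against 596 to 733 in control Tconvs, and to 136 to 196 in CD70Tg against 220 to 291 in control Tregs, and *Ncr1* was at or under 3 reads in all groups. The 2 CD8 T cell markers summed to 1563 to 1590 in CD70Tg against 681 to 720 in control Tconvs, and to 631 to 660 in CD70Tg against 317 to 417 in control Tregs. Most of this sum was *Cd8b1*, not called between genotypes, whereas *Cd8a* was at 17 and 28 in control and 508 and 608 in CD70Tg Tconvs, and at 25 and 71 in control and 262 and 223 in CD70Tg Tregs. The 5 dendritic cell markers summed to 177 to 340 in CD70Tg against 66 to 133 in control Tconvs, and to 356 to 389 in CD70Tg against 94 to 156 in control Tregs. Single markers called between genotypes on these lists were *Klrb1c*, lower in CD70Tg Tconvs, and *Hba-a1* and *Hbb-bs*, higher in CD70Tg Tregs (not without the first library of either Treg genotype). In Tregs *Klrb1c* was at 64 and 36 in control and at 0 and 11 in CD70Tg libraries. As 3 reads give 32 and 17 in the latter, no test of it in Tregs is given. *Zbtb46* was at 209 and 191 in CD70Tg Tregs and at 38 or less elsewhere, and *S100a9* at 95 and 104 against 10 or less. *Cd8a*, *Itgax*, *Zbtb46* and *S100a9* reached the minimum value in 2 or more libraries of CD70Tg mice alone, and no test between genotypes is given for such genes. Macrophage and monocyte markers are given with *Ccr2* below. The part of these cells in the results on receptors was not tested.

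In Tregs, 2 of the 9 receptors rose in CD70Tg mice, *Cxcr3* and *Ccr2*, and 1 fell, *Cxcr4*. Among all tested genes 2.53% rose and 1.08% fell in Tregs. In Tconvs, 5 of the 9 rose, *Cxcr3*, *Cxcr6*, *Ccr2*, *Ccr6* and *Ccr8*, and *Cxcr4* again was the 1 that fell, where 4.07% of all tested genes rose and 0.577% fell. The median log2 fold change of the 9 receptors was 0.49 in Tregs and 1.07 in Tconvs, and that of all tested genes was -0.053 and 0.007. The 2 responses were also compared with each other. Their difference passed the test for 0 of the 9 receptors (limma), where 1.02% of all tested genes passed, although 4 of the 9 had an unadjusted p-value under 0.05. *Cxcr4* and *Ccr2* in Tregs were no longer called with no minimum value or with limma-voom on the estimated reads, which left *Cxcr3* as the only receptor called there, as did leaving out the second CD70Tg Treg library. Without the second CD70Tg Tconv library, 2 of the 9 receptors were called in Tconvs, *Ccr2* and *Ccr6*.

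**Figure D1:**
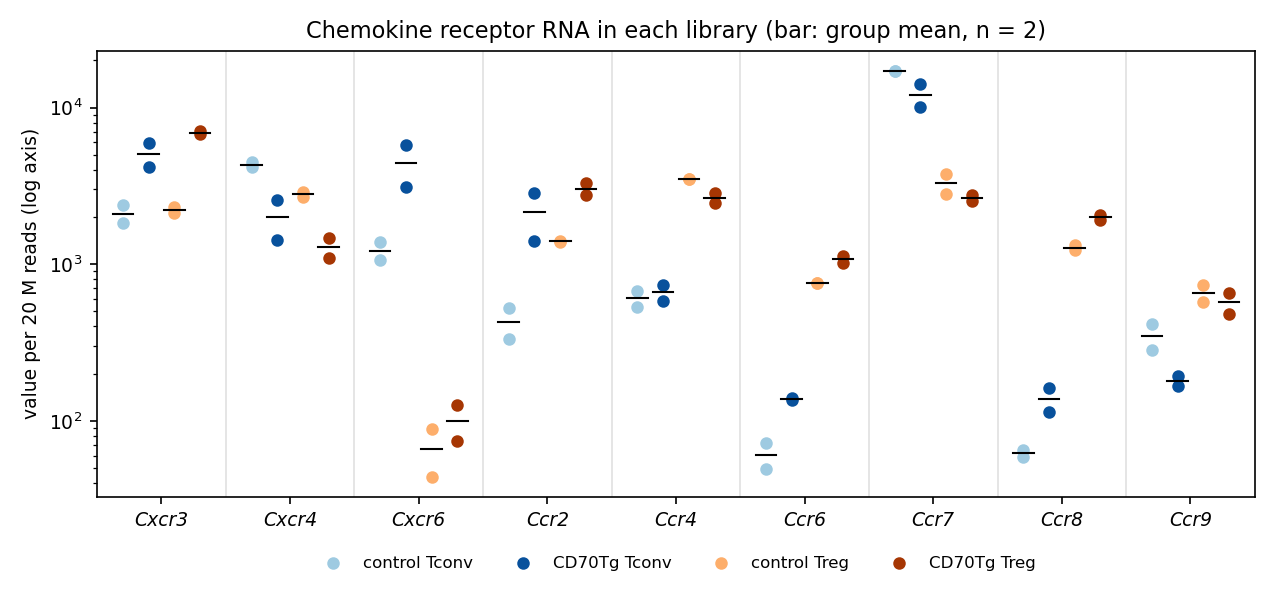
Value of each receptor per 20 M reads (vertical log axis) in each of the 8 libraries (points) with the mean of the 2 libraries of a group (bar), for control and CD70Tg Tconvs (blue) and Tregs (orange to brown). *Ccr7* and *Cxcr6* stood higher in all Tconv libraries than in any Treg library, *Ccr4*, *Ccr6* and *Ccr8* lower, and *Cxcr3* was higher in all CD70Tg than in all control libraries.

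The receptors of inflamed tissue come first. CXCR3 binds the interferon-induced chemokines CXCL9, CXCL10 and CXCL11 and guides type 1 effector cells and the Tregs that restrain them. Its gene *Cxcr3* lies on chromosome X (101731535 to 101734269, minus strand, GRCm38). It was at 2310 and 2137 in control Tregs and at 6729 and 7112 in CD70Tg Tregs. In Tconvs it was at 2385 and 1821 in control and at 4146 and 5978 in CD70Tg libraries. Every CD70Tg library thus lay above every control library, and the controls of the 2 subsets overlapped. *Cxcr3* rose 3.11-fold in Tregs (log2 fold change 1.64, SE 0.16, limma adjusted p = 1.4e-05). In Tconvs it rose 2.39-fold (log2 fold change 1.25, SE 0.16, limma adjusted p = 4.6e-05), and without the second CD70Tg Tconv library its log2 fold change was 0.99, just under the threshold. The Treg response exceeded the Tconv response by 0.38 on the log2 scale, with a 95% interval of -0.09 to 0.85 (limma adjusted p = 0.60), so that a difference was not shown. In control mice the subsets differed by 0.09 (95% interval -0.24 to 0.43). In CD70Tg mice Tregs were higher by 0.47 (limma adjusted p = 0.024), short of the fold threshold.

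CXCR6 binds CXCL16, which is displayed on the surface of dendritic cells and liver endothelium, and marks tissue-homing effector and resident cells. *Cxcr6* lies on chromosome 9 (123806475 to 123811760, plus strand), and its promoter window with 3 CpG dinucleotides is printed above. It was at 1056 and 1388 in control Tconvs and at 3095 and 5738 in CD70Tg Tconvs. In Tregs it was at 44 and 88 in control and at 74 and 126 in CD70Tg libraries, which overlapped. *Cxcr6* rose 3.47-fold in Tconvs (log2 fold change 1.80, SE 0.32, limma adjusted p = 0.0014). The call was lost with no minimum value (limma adjusted p = 0.11) and without the second CD70Tg Tconv library, where the log2 fold change was 1.35 (limma adjusted p = 0.058). In Tregs the log2 fold change was 0.59 with a 95% interval of -0.09 to 1.27 (limma adjusted p = 0.31). The Treg response was 1.20 below that of Tconvs (unadjusted p = 0.017, limma adjusted p = 0.32). The values of control Tregs, 44 and 88, rest on few reads, since 3 reads give 15 and 14 in these libraries.

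CCR2, the receptor of CCL2, CCL7 and CCL12, draws monocytes and activated T cells into inflamed tissue. *Ccr2* (chromosome 9, 124101950 to 124113557, plus strand) was at 331 and 528 in control Tconvs and at 1415 and 2867 in CD70Tg Tconvs. In Tregs it was at 1388 and 1410 in control and at 2748 and 3312 in CD70Tg libraries. The libraries of the 2 genotypes did not overlap in either subset, and CD70Tg Tconvs reached the range of the Tregs. *Ccr2* rose 4.77-fold in Tconvs (log2 fold change 2.25, SE 0.25, limma adjusted p = 1.2e-05), the largest increase of the 9 receptors there, and its call held under each alternative. In Tregs it rose 2.15-fold (log2 fold change 1.11, SE 0.25, limma adjusted p = 0.012), and the Treg call was lost under 5 of 17 alternatives, with a limma adjusted p of up to 0.15. These were no minimum value, limma-voom, and leaving out either control Treg library (limma adjusted p = 0.081 without the first and 0.052 without the second) or the second CD70Tg Treg library (0.97, limma adjusted p = 0.11). The Treg response was 1.15 below the Tconv response (unadjusted p = 0.0048, limma adjusted p = 0.17). That difference passed without the first CD70Tg Tconv library (-1.66, limma adjusted p = 0.0042) and without the second control Tconv library (-1.48, limma adjusted p = 0.037), and was -0.64 without the second CD70Tg Tconv library (limma adjusted p = 0.42). Monocytes also express *Ccr2*. The 6 macrophage and monocyte markers summed to 1520 to 1542 in control and 1135 to 1460 in CD70Tg Tconvs, and to 2784 to 2802 in control and 2787 to 3012 in CD70Tg Tregs. Within that list *Itgam* was called higher in CD70Tg Tregs, a call lost under 5 of 16 alternatives. In Tconvs the members went different ways. *Cd68* was at 79 and 51 in control and 245 and 306 in CD70Tg Tconvs, with no test given. *Lyz2*, *Csf1r* and *Itgam* had log2 fold changes of -0.61, -0.33 and -0.95 there. The part of such cells in the rise of *Ccr2* was not tested.

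The receptors of lymphoid organs and bone marrow follow. CXCR4 binds CXCL12 and holds lymphocytes in bone marrow and lymphoid tissue. *Cxcr4* (chromosome 1, 128588199 to 128592293, minus strand), the receptor with the CpG-rich window printed above, was at 4497 and 4154 in control Tconvs and at 2568 and 1422 in CD70Tg Tconvs. In Tregs it was at 2897 and 2680 in control and at 1463 and 1093 in CD70Tg libraries. All control libraries lay above all CD70Tg libraries. *Cxcr4* fell 2.26-fold in Tconvs (log2 fold change -1.18, SE 0.20, limma adjusted p = 0.00095) and 2.20-fold in Tregs (log2 fold change -1.14, SE 0.20, limma adjusted p = 0.0023). The difference between these responses was 0.04, with a 95% interval of -0.56 to 0.64. Without the second CD70Tg Tconv library the Tconv value was -0.75 (limma adjusted p = 0.013), and without the second CD70Tg Treg library the Treg value was -0.93 (limma adjusted p = 0.044), both short of the fold threshold. With no minimum value, the limma adjusted p was 0.096 in Tconvs and 0.081 in Tregs.

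CCR7 binds CCL19 and CCL21 and brings naive T cells into the T cell zones. *Ccr7* (chromosome 11, 99144196 to 99155077, minus strand) was at 17030 and 17109 in control Tconvs and at 14184 and 10025 in CD70Tg Tconvs. In Tregs it was at 3756 and 2794 in control and at 2759 and 2518 in CD70Tg libraries. The CD70Tg libraries lay below the control libraries in both subsets, in Tregs by a narrow margin. The log2 fold change was -0.52 in Tconvs (95% interval -0.85 to -0.18, limma adjusted p = 0.051, and -0.27 without the second CD70Tg Tconv library) and -0.30 in Tregs (95% interval -0.63 to 0.04, limma adjusted p = 0.29), neither called.

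CCR9 binds CCL25 and directs T cells to the small intestine. *Ccr9* (chromosome 9, 123678439 to 123784330, plus strand) shares 21.5% of its exon length with other annotated genes, *AC165425.1*, *Gm17200* and *Slc6a20a*, and the sources used here do not say whether reads were counted by strand, so its values are less certain. It was at 283 and 413 in control Tconvs, at 194 and 166 in CD70Tg Tconvs, at 738 and 570 in control Tregs and at 659 and 484 in CD70Tg Tregs. The Tconv genotypes did not overlap and the Treg genotypes did. The log2 fold change was -0.91 in Tconvs (SE 0.23, limma adjusted p = 0.019), short of the fold threshold, and -0.20 in Tregs (95% interval -0.69 to 0.29, limma adjusted p = 0.68). The Tconv value passed that threshold without the first control Tconv library (-1.18) and without the first CD70Tg Tconv library (-1.02). It was -0.64 (limma adjusted p = 0.25) without the second control and -0.80 (limma adjusted p = 0.14) without the second CD70Tg Tconv library, and with no minimum value the limma adjusted p was 0.17.

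The last group holds receptors known from Tregs and from type 2 and type 17 cells. CCR8 binds CCL1 and marks effector Tregs of tissues and tumours. *Ccr8* (chromosome 9, 120092114 to 120094906, plus strand) was at 1223 and 1323 in control Tregs, at 1913 and 2072 in CD70Tg Tregs, at 59 and 65 in control Tconvs and at 113 and 163 in CD70Tg Tconvs. The 4 groups did not overlap. *Ccr8* rose 2.10-fold in Tconvs (log2 fold change 1.07, SE 0.21, limma adjusted p = 0.0024), with a log2 fold change of 0.93 when 20 in place of 5 was added before the log and 0.82 without the second CD70Tg Tconv library. In Tregs it was 1.56-fold higher in CD70Tg mice (log2 fold change 0.64, SE 0.21, limma adjusted p = 0.070), which was not called.

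CCR6 binds CCL20 and marks type 17 cells and a part of the effector Tregs. *Ccr6* (chromosome 17, 8236043 to 8257141, plus strand), whose window with the motif matches is printed above, was at 762 and 758 in control Tregs, at 1014 and 1131 in CD70Tg Tregs, at 49 and 72 in control Tconvs and at 139 and 136 in CD70Tg Tconvs. The order of the 4 groups was that of *Ccr8*, again with no overlap. *Ccr6* rose 2.21-fold in Tconvs (log2 fold change 1.14, SE 0.22, limma adjusted p = 0.0028), a value that was 0.98 with 20 added before the log and 0.89 without the first control Tconv library. In Tregs the log2 fold change was 0.49 (95% interval 0.02 to 0.97, limma adjusted p = 0.21).

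CCR4 binds CCL17 and CCL22 and is known from type 2 cells, skin-homing cells and Tregs. *Ccr4* (chromosome 9, 114490316 to 114504916, minus strand) was at 3509 and 3516 in control Tregs, at 2853 and 2447 in CD70Tg Tregs, at 535 and 676 in control Tconvs and at 741 and 583 in CD70Tg Tconvs. The Treg genotypes did not overlap and the Tconv genotypes did. Its log2 fold change was -0.41 in Tregs (95% interval -0.73 to -0.09, limma adjusted p = 0.12) and 0.13 in Tconvs (95% interval -0.19 to 0.45, limma adjusted p = 0.75). The difference of -0.54 had an unadjusted p of 0.023 and a limma adjusted p of 0.36.

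**Figure D2:**
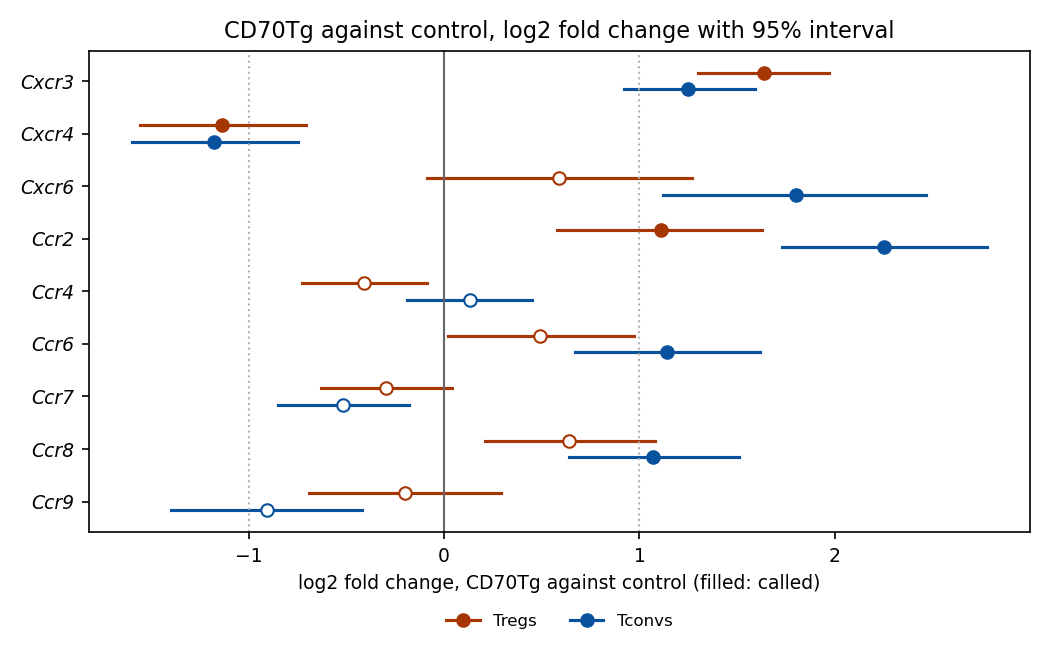
Log2 fold change of each receptor between CD70Tg and control libraries (horizontal axis, with its 95% interval) in Tregs (brown) and Tconvs (blue), 2 libraries per group, with filled points for called genes and dotted lines at -1 and 1. *Cxcr3* and *Ccr2* lay to the right and *Cxcr4* to the left in both subsets, whereas *Cxcr6*, *Ccr6* and *Ccr8* were called in Tconvs alone, with differences between the subsets that did not pass the test.

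Tregs and Tconvs were next compared within each genotype, to see which receptors tell the subsets apart and whether this holds under CD70. In control mice, 4 of the 9 receptors were higher in Tregs, *Ccr2*, *Ccr4*, *Ccr6* and *Ccr8*, where 14.7% of all tested genes were called higher. The receptors *Cxcr6* and *Ccr7*, 2 of the 9, were lower, where 4.43% of all tested genes were called lower. In CD70Tg mice, *Ccr4*, *Ccr6*, *Ccr8* and *Ccr9* were higher, 4 of the 9 against 12.3% of all tested genes, and *Cxcr6* and *Ccr7* were again lower, 2 of the 9 against 4.94%. These 2 comparisons share no library, but they share the estimate of the spread, and in both the Treg libraries were the shallower. The calls of *Ccr4*, *Ccr6*, *Ccr7*, *Ccr8* and *Cxcr6* held under all 17 alternatives in both genotypes.

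The widest gaps were those of *Cxcr6* and *Ccr8*. *Cxcr6* was 18-fold lower in control Tregs than in control Tconvs (log2 fold change -4.17, SE 0.32, limma adjusted p = 3.9e-08). In CD70Tg mice it was 41.5-fold lower (log2 fold change -5.37, SE 0.32, limma adjusted p = 3.1e-09). Of the 4 NK cell markers, *Klrk1* was at 90 to 199 in Tconvs and 0 to 9 in Tregs and *Klrb1c* at 68 to 423 and 0 to 64. *Tyrobp* went the other way, at 32 to 111 in Tconvs and 136 to 246 in Tregs, and *Ncr1* was at or under 3 reads. The part of NK cells in the *Cxcr6* values was not tested. *Ccr8* was 19.1-fold higher in control Tregs (log2 fold change 4.25, SE 0.21, limma adjusted p = 2.5e-10) and 14.2-fold higher in CD70Tg Tregs (log2 fold change 3.83, SE 0.21, limma adjusted p = 1.0e-09). *Ccr6* was higher by 11.9-fold in control (log2 fold change 3.57, SE 0.22) and 7.55-fold in CD70Tg Tregs (log2 fold change 2.92, SE 0.22). *Ccr4* was higher by 5.80-fold and 4-fold in the same order, and *Ccr7* was lower by 5.26-fold and 4.52-fold. These 5 receptors thus told the subsets apart in either genotype.

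*Ccr2* and *Ccr9* behaved otherwise. *Ccr2* was 3.32-fold higher in control Tregs than in control Tconvs (log2 fold change 1.73, SE 0.25, limma adjusted p = 3.7e-05). In CD70Tg mice the log2 fold change of *Ccr2* was 0.58 (95% interval 0.05 to 1.11, limma adjusted p = 0.070), and it was 1.09 and called without the second CD70Tg Tconv library and 0.07 without the first. Macrophage and monocyte markers also differed between the subsets. *Adgre1* was at 40 to 49 in Tconvs and 199 to 272 in Tregs. *Cd68* was at 79 and 51 in control Tconvs and 224 and 211 in control Tregs. *Csf1r* (3.08-fold) was called higher in control Tregs than in control Tconvs. In CD70Tg mice *Csf1r*, *Itgam* and *Lyz2* were called higher in Tregs, while *Cd68* had a log2 fold change of 0.14. The part of such cells in the *Ccr2* values was not tested. *Ccr9* was 0.91 higher on the log2 scale in control Tregs (limma adjusted p = 0.0043), short of the fold threshold, and 1.63 higher in CD70Tg Tregs (limma adjusted p = 4.3e-05). The control value passed the fold threshold without the second control Tconv library (1.18) and without the second control Treg library (1.1), and was 0.64 (limma adjusted p = 0.072) without the first control Tconv library and 0.73 (limma adjusted p = 0.064) without the first control Treg library. *Cxcr4* was lower in Tregs by 0.63 and 0.59 on the log2 scale in control and CD70Tg mice, with a limma adjusted p of 0.017 and 0.026 and neither past the fold threshold, except in CD70Tg mice without the second CD70Tg Tconv library (-1.02), and the CD70Tg value was -0.17 without the first.

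**Figure D3:**
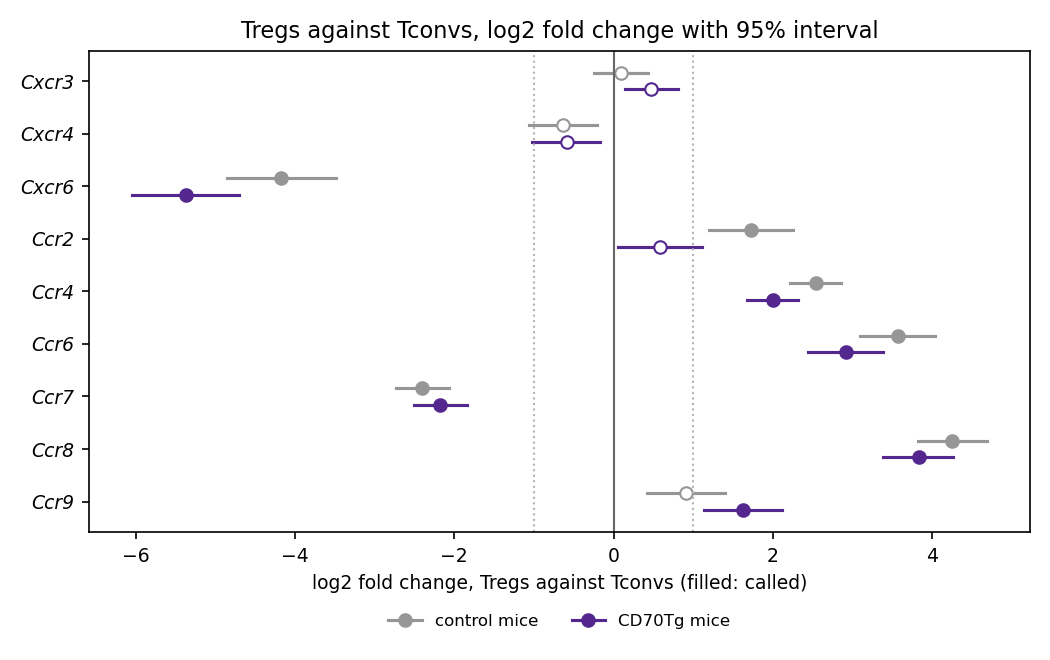
Log2 fold change of each receptor between Tregs and Tconvs (horizontal axis, with its 95% interval) in control mice (grey) and CD70Tg mice (purple), 2 libraries per group, with filled points for called genes and dotted lines at -1 and 1. *Cxcr6* and *Ccr7* lay far to the left and *Ccr4*, *Ccr6* and *Ccr8* far to the right in both genotypes.

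Levels of different receptors were compared per kb of annotated exon. In control Tconvs *Ccr7* was highest, at 8630 ± 28.2 per kb (SD, n = 2), followed by *Cxcr4* at 2390 ± 134 and *Cxcr3* at 1210 ± 230, and *Ccr6* was lowest at 26.1 ± 7.01, not separated by its spread from *Ccr9* at 33.9 ± 8.96. In CD70Tg Tconvs *Ccr7* remained first at 6120 ± 1490, with *Cxcr3* at 2920 ± 748 and *Cxcr6* at 2290 ± 968, which did not differ beyond their spread. In control Tregs the first 5 receptors were closer to each other, *Ccr7* at 1660 ± 344, *Cxcr4* at 1540 ± 84.9, *Cxcr3* at 1280 ± 70.7, *Ccr4* at 1140 ± 1.6 and *Ccr8* at 1080 ± 60.2, of which *Ccr7* differed beyond the summed SDs neither from *Cxcr4* nor from *Cxcr3*, and *Ccr4* not from *Ccr8*. In CD70Tg Tregs *Cxcr3* was first at 4000 ± 156, followed by *Ccr8* at 1700 ± 95.7 and *Ccr7* at 1330 ± 86.2, and *Cxcr6* was lowest at 51.8 ± 19.0, not separated by its spread from *Ccr9* at 55.7 ± 12.1. The level of *Ccr9* depends most on the length used, 10260 bases of annotated exon against 5197 in its longest coding transcript. With the latter *Ccr9* was at 67 per kb in control Tconvs, against 34.5 for *Ccr6*, and at 110 per kb in CD70Tg Tregs, against 52.4 for *Cxcr6*.

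The summed level per kb of the 9 receptors was 13110 to 13340 in all 4 Tconv libraries. Within this near constant sum, *Ccr7* took 64.5 to 65.8% in control and 38.7 to 54.3% in CD70Tg Tconvs. *Cxcr3* took 8.01 to 10.3% in control and 18.1 to 26.4% in CD70Tg Tconvs, and *Cxcr6* 4.10 to 5.47% and 12.1 to 22.7%. In Tregs the summed level was 7029 and 7640 per kb in control and 9588 and 9631 per kb in CD70Tg libraries. There *Cxcr3* took 17.5 to 17.6% in control and 40.5 to 42.7% in CD70Tg libraries, *Cxcr4* 21.0 to 21.1% and 6.28 to 8.44%, and *Ccr4* 14.9 to 16.2% and 8.21 to 9.62%. *Ccr8* took 13.6 to 16% in control and 17.0 to 18.3% in CD70Tg Tregs, against at most 1.06% in any Tconv library. These shares are descriptions and were not tested.

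**Figure D4:**
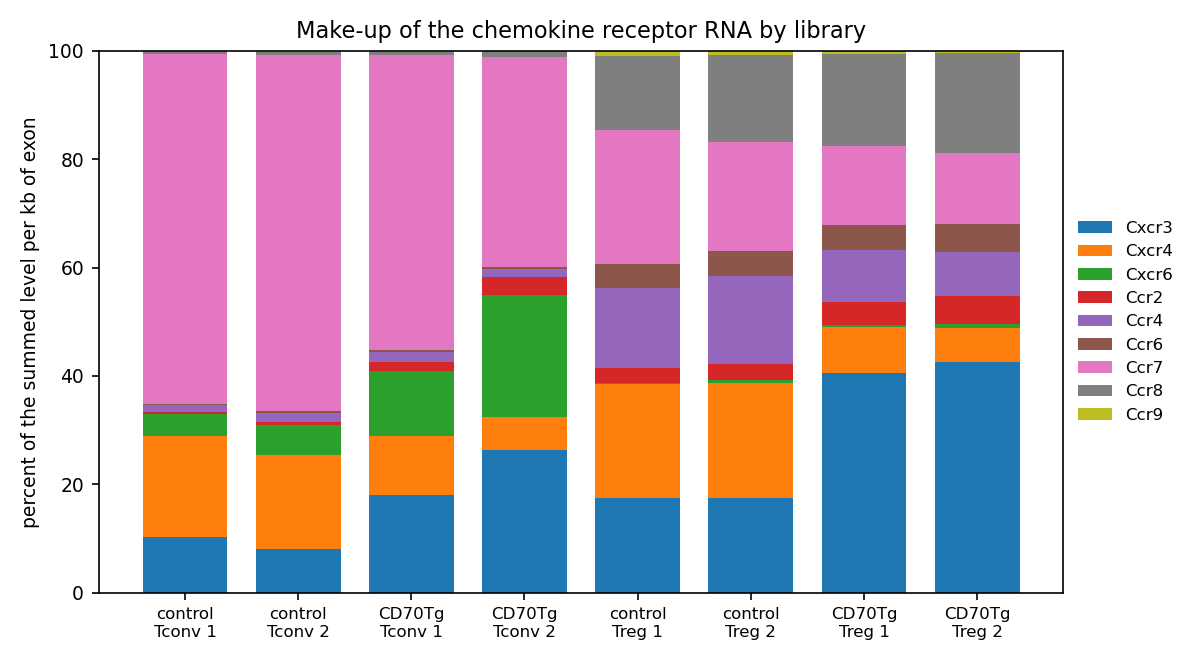
Share of each receptor in the summed level per kb of the 9 receptors (vertical axis, percent) in each of the 8 libraries (bars). *Ccr7* took 64.5 to 65.8% in control Tconvs and *Cxcr3* 40.5 to 42.7% in CD70Tg Tregs.

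Within each receptor, the 4 groups were ordered by their mean. CD70Tg Tregs came first for *Cxcr3*, *Ccr2*, *Ccr6* and *Ccr8*, CD70Tg Tconvs for *Cxcr6*, control Tconvs for *Cxcr4* and *Ccr7*, and control Tregs for *Ccr4* and *Ccr9*. For *Ccr6* and *Ccr8* every group differed from the next by more than the summed SDs of the pair. For *Cxcr3* control Tregs and control Tconvs did not, nor did the Treg genotypes for *Cxcr6*, *Ccr7* and *Ccr9* or the Tconv genotypes for *Ccr4*. For *Ccr2*, CD70Tg Tconvs differed beyond that spread neither from CD70Tg Tregs above nor from control Tregs below, and for *Cxcr4* they differed neither from control Tregs above nor from CD70Tg Tregs below.

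Of the 9 genes, *Cxcr6*, *Ccr2* and *Ccr9* lie in a single cluster on chromosome 9, over 435.1 kb from the start of *Ccr9* to the end of *Ccr2*, and *Ccr4* and *Ccr8* lie elsewhere on that chromosome. The receptors of the cluster did not share a single pattern over the 4 groups. *Ccr9*, at the start of the cluster, was higher in all Treg than in all Tconv libraries. *Cxcr6*, 128.0 kb further, was lower in all Treg than in all Tconv libraries and highest in CD70Tg Tconvs. Within the annotated span of *Ccr9*, on the other strand, *Lztfl1*, which is no receptor gene, was at 222 to 278 in Tconvs and 622 to 758 in Tregs. *Ccr3*, 343.5 kb from the start of *Ccr9*, was at 19 to 40 in Tconvs and 248 to 316 in Tregs, with no call between genotypes. *Xcr1*, *Ccr1* and *Ccr1l1* were at 63 or less in all libraries and were not tested. *Ccr2*, 423.5 kb from that start, was higher in both CD70Tg than in both control libraries of each subset. Genes of this stretch include close paralogs, and reads that map to several of them could be split or lost.

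**Figure D5:**
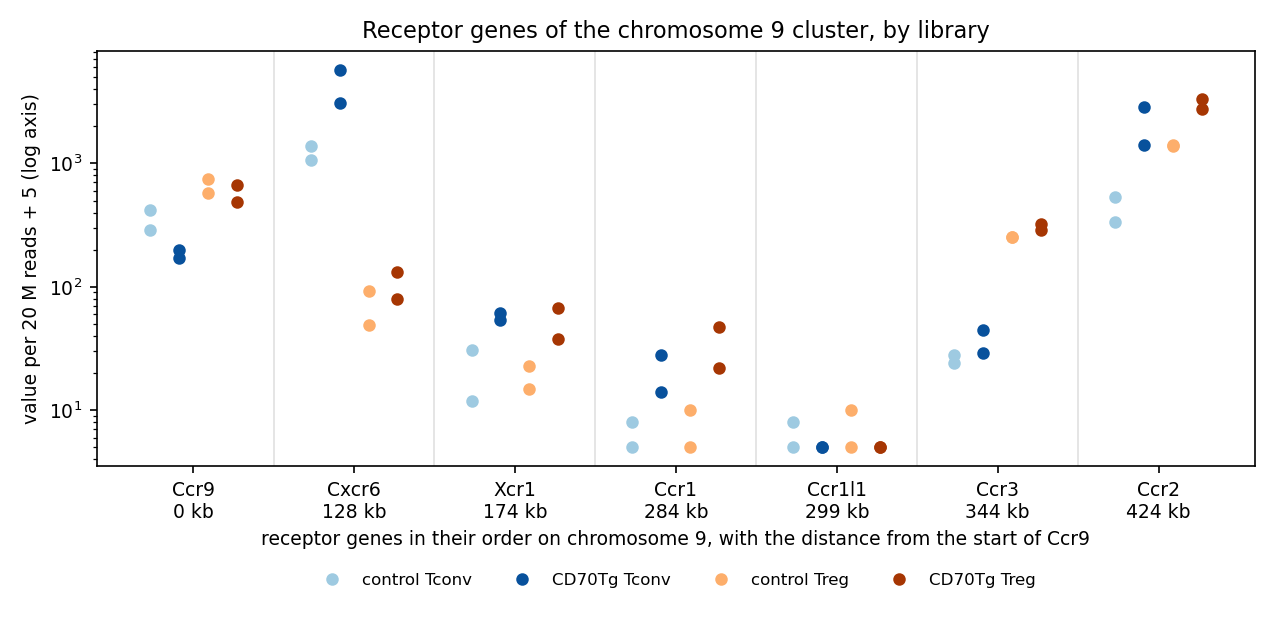
Value per 20 M reads plus 5 (vertical log axis) of the receptor genes of the chromosome 9 cluster in each of the 8 libraries (points), in their order on the chromosome with the distance of each start from that of *Ccr9*. *Cxcr6* was higher in all Tconv than in all Treg libraries and *Ccr9* and *Ccr3* were lower, while *Ccr2* was higher in CD70Tg than in control libraries of both subsets.

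Other chemokine receptors were taken from a list of 14, of which 6 were high enough to be tested. *Cx3cr1*, the receptor of fractalkine, was at 34 and 44 in control and 629 and 1042 in CD70Tg Tconvs, and at 34 and 27 in control and 314 and 218 in CD70Tg Tregs. It thus reached the minimum value in CD70Tg libraries alone, and no test between genotypes is given. *Ccrl2*, an atypical receptor that presents chemerin, was at 44 and 40 in control and at 153 and 187 in CD70Tg Tconvs. Within Tconvs it too reached the minimum in CD70Tg libraries alone, and no test of it there is given. None of the remaining tested receptors was called between genotypes. Between the subsets, *Ccr3* (values given above) and *Ccr10*, at 18 to 70 in Tconvs and 64 to 115 in Tregs, reached the minimum in 2 or more libraries of Tregs alone and were left out. Of the other 4, *Ccrl2* was called higher and *Cx3cr1* lower in Tregs of CD70Tg mice, where 12.3% of all tested genes were called higher and 4.94% lower. In control mice *Ccrl2* was at 384 and 373 in Tregs and under the minimum in Tconvs, and no test is given.

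Of 16 chemokines that are ligands of the 9 receptors, 2 were tested, *Cxcl9* and *Cxcl10*, both ligands of CXCR3. *Cxcl9* was at 20 and 31 in control Tregs and at 95 and 115 in CD70Tg Tregs, and in Tconvs at 9 and 17 in control and at 29 and 54 in CD70Tg libraries. *Cxcl9* reached the minimum value in the CD70Tg Treg libraries alone, and no test of it is given. *Cxcl10* was not called in either subset. The other 14 ligands were at 68 or less in all libraries.

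Of 26 genes for G proteins, receptor kinases, arrestins, RGS proteins and motility downstream of the receptors, 25 were tested. In Tregs 0 of the 25 were called, with 3 at an adjusted p-value under 0.05 and short of the fold threshold. Of all tested genes 2.53% rose and 1.08% fell there. In Tconvs the receptor kinase *Grk5* (log2 fold change 1.11) and the G protein silencer *Rgs1* (2.16) rose and 0 fell, against 4.07% and 0.577% of all tested genes. *Grk5* was at 0.83 without the second CD70Tg Tconv library, and was not called without it or without either control Tconv library. *Rgs1* was at 184 and 268 in control and 750 and 1357 in CD70Tg Tconvs, and at 2053 and 2015 in control and 2289 and 2708 in CD70Tg Tregs. It was thus already higher in control Tregs than in any Tconv library. *Rgs16* was at 179 and 49 in control and 752 and 1326 in CD70Tg Tconvs, and at 534 and 613 in control and 962 and 1126 in CD70Tg Tregs. As its control Tconv value of 49 was under the minimum value, no test of *Rgs16*, another G protein silencer, is given within Tconvs or within control mice. *Rgs1*, *Rgs16* and *Rgs2* passed the test of the difference between the 2 responses, where 1.02% of all tested genes passed. In Tregs against Tconvs, *Rgs1* was called higher and *Rgs2* lower in control mice, and *Rgs1* higher and *Pik3r5* lower in CD70Tg mice. The last 2 fell short of the fold threshold without the first CD70Tg Tconv library (*Rgs1*, 0.87) and without the second CD70Tg Treg library (*Pik3r5*, -0.94). The median log2 fold change of the 25 was 0.07 in Tregs and -0.08 in Tconvs.

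Of 9 transcription factors known to act on these receptor genes in T cells, all were tested. In Tregs *Tbx21*, which encodes T-bet, and *Eomes* rose, 2 of the 9, against 2.53% of all tested genes. In Tconvs 3 of the 9 rose, against 4.07%, *Eomes*, *Rora* and *Prdm1*, which encodes Blimp-1. *Eomes* was at 93 and 75 in control and 1547 and 1458 in CD70Tg Tregs (log2 fold change 4.09, SE 0.19, limma adjusted p = 2.3e-09), and at 352 and 258 in control and 2807 and 3386 in CD70Tg Tconvs (log2 fold change 3.33, SE 0.19, limma adjusted p = 4.3e-09). *Tbx21* was at 296 and 250 in control and 607 and 735 in CD70Tg Tregs (log2 fold change 1.28, SE 0.31, limma adjusted p = 0.019). This call was lost under 6 of 16 alternatives, among them leaving out any 1 of the 4 Treg libraries (log2 fold change 1.14 to 1.42, limma adjusted p = 0.064 to 0.13). In Tconvs *Tbx21* was at 819 and 635 in control and at 848 and 2368 in CD70Tg libraries (log2 fold change 0.97, limma adjusted p = 0.066). The second CD70Tg Tconv library was the highest of the 4 Tconv libraries for *Cxcr3*, *Cxcr6*, *Ccr2* and *Cx3cr1*. It was also the highest for *Tbx21*, *Eomes*, *Rora*, *Rgs1* and *Rgs16*, among others, and is the deepest library. A link between these genes was not tested. *Klf2*, a factor of lymphoid homing, had a log2 fold change of 0.00 in Tregs and 0.03 in Tconvs. In Tregs against Tconvs, *Tbx21*, *Eomes* and *Satb1* were called lower in both genotypes, *Prdm1* higher in both, *Rora* higher in control mice and *Gata3* higher in CD70Tg mice. In CD70Tg mice *Tbx21* was at -0.34 and *Eomes* at -0.90 without the second CD70Tg Tconv library, and *Gata3* at 0.90 without the first, none then called. *Tbx21* was also not called there without the first CD70Tg Treg library (-0.94), *Eomes* without the second (-0.99) and *Gata3* without the first (0.99).

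For each receptor, the genes with the most similar pattern over the 8 libraries were found by the root mean square difference of log2(value + 5) after centring each gene on its mean. The closest match of the 9 was *Tcf7*, which encodes TCF-1 of naive T cells, to *Ccr7*, with a root mean square difference of 0.103 on the log2 scale. *Tcf7* was at 43076 and 40413 in control and 36343 and 28016 in CD70Tg Tconvs, and at 8769 and 7466 in control and 6102 and 6286 in CD70Tg Tregs. *Ddit4*, a stress-induced inhibitor of mTORC1, was closest to *Cxcr4* (0.105), with values of 11339 and 11260 in control and 5406 and 3358 in CD70Tg Tconvs. *Adgre1* was closest to *Ccr4* (0.117) at 40 to 49 in Tconvs and 199 to 272 in Tregs, and is itself on the list of macrophage markers. *St14* and *Gna15* were closest to *Ccr2* (0.177 and 0.180), *Lysmd2* to *Cxcr3* (0.174), *Myo1e* and *Epcam* to *Ccr6* (0.198 and 0.229), *Cdcp1* to *Ccr8* (0.230) and *1110032F04Rik* to *Ccr9* (0.155). *Cxcr6* had no such near match, and the closest gene, *Atp8b4*, differed from it by 0.665. The 8 libraries share depth differences between the subsets, and these differences are descriptions without a test.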

How the data were processed

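RNA of the 8 libraries was prepared with the Ovation SoLo kit and sequenced in pairs. Per the labels and the methods, the authors trimmed reads with Trimmomatic 0.36, mapped them to mm10 with STAR 2.5.3 and counted them per gene with HTSeq 0.9.1. The deposited score values are these counts brought to a total of 20 M for each library, with fractions rounded up, and they were therefore not tested as counts. Totals were close to 20 M in all 8 libraries. KO in a column name was read as CD27+/- control, a group that the sample labels name WT. Of 52636 rows, 4112 named after genomic clones were left out, and of rows sharing a name the largest kept it. A value of 60 or more in 2 or more libraries was required, which 12817 genes met. Values were fitted as log2(value + 5) in R 4.3.3 with limma 3.58.1, with a trend in the prior variance and a coefficient per group, over 5 contrasts, each adjusted over all tested genes. With 2 libraries per group relabelling of samples cannot give a small p-value, and no such test was made. The text names every receptor, the called genes of the lists of receptors, ligands, signalling genes and transcription factors, and the nearest genes by pattern. Of cell markers it names those called between genotypes. No call within a subset or a genotype is given for a list gene unless both libraries on each side reached the minimum value. For the difference of the responses, 2 or more libraries of each genotype and of each subset had to reach it. The receptors and lists were chosen with earlier results of these data known, and some genes of the lists are not reported here. Alternatives were other pseudocounts (1, 20), minimum values, scaling, read-based limma-voom, clone-named rows, thresholds, the 4 libraries of a contrast alone, leaving out each library, and, for levels per kb, the longest coding transcript. Positions and lengths are from GENCODE M21 (GRCm38), promoter windows from RefSeq (GRCm38.p6).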

Additional observations from a re-analysis of the deposited data

Results flagged for a closer look

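The difference between the Treg and Tconv responses to CD70 passed the test (limma adjusted p-value under 0.05) for none of the 9 receptors, but for 7 of 55 genes of the other lists, markers included, that reached the minimum value in 2 or more libraries of each genotype and of each subset. Of all tested genes 1.02% passed. With no minimum value none of the 7 passed. *Rgs1* (-1.87), *Rgs16* (-2.47) and *Prdm1* (-1.38) responded less in Tregs, in which their control values were higher. *Rgs16* was at 179 and 49 in control Tconvs, the latter under the minimum value. Its difference was -3.36 without the first and -1.59 without the second of these libraries, and was not called under 9 of 15 alternatives. For *Rgs2* the difference was 1.33, and for *Ctla4* -1.05, not called under 10 of 15. Among markers of other cells the difference was 1.20 for *Lyz2*, not called under 8 of 15 alternatives, and 2.09 for *Itgam*, not called under 2 of 15. Libraries of 2 per group were too few to look for outlying samples within a group.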

How the results depend on the processing

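No paired analysis was possible because the column names lack the replicate numbers of the samples and column order was not used to assign them, so the planned replicate block was not run. Of 747 receptor fold changes recomputed under the alternatives, 708 kept their direction and their side of the thresholds, 17 were no longer called, 13 became called and 9 changed sign. The number of receptors called in Tregs was 3, and 1 with no minimum value and with limma-voom on estimated reads. Leaving out each library in turn, it was 1 to 3 in Tregs (1 without the second CD70Tg library) and 2 to 7 in Tconvs, from 6 (2 without the second CD70Tg library, the deepest). It was 0 to 1 for the difference of the responses (*Ccr2*, as given above), 6 to 7 for Tregs against Tconvs in control mice and 6 to 8 in CD70Tg mice. Changes of sign occurred when a library was left out, in values that were not called: *Ccr9* in Tregs (-0.42 to 0.02), *Ccr4* in Tconvs (-0.04 to 0.30), *Cxcr3* between control subsets (-0.10 to 0.29), and the difference of the responses for *Cxcr4* (-0.39 to 0.46, with -0.17 and -0.02 among the values) and *Ccr7* (-0.03 to 0.47). Of 1304 recomputed values behind 84 calls among list genes and markers, calls left out above included, 1197 stayed called, 107 did not and 0 changed sign. The causes were not tested. Another scaling moved the median of all genes by at most 0.08 on the log2 scale. With the length of the longest coding transcript, 11 of 36 levels per kb moved by more than their SD. Of these, *Ccr9* moved in all 4 groups (in CD70Tg Tregs from 55.7 to 110). In Tregs, *Cxcr6* rests on few reads.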
